A study of Mus musculus with 2 samples.

Results

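The genes followed here belong to the route by which cells present their own peptides: H2-K1, H2-D1, B2m, Tap1, Tap2, Tapbp, Psmb8, Psmb9 and Psmb10. They were chosen by symbol, with no measured value entering the choice, and all 9 are among the 55357 genes listed for both libraries. The cells came from the cerebral cortex of mice 8 weeks old and were sorted as CD45+ CD11b+, a gate that takes microglia and other myeloid cells together. One 10x Genomics 3′ library came from wild-type mice and 1 from Msn knockout mice, with the cortices of several animals of a genotype pooled before the sort. Msn codes for moesin, a protein that links actin filaments to the cell membrane. The knockout mice were C57BL/6 per the series' design text. Not given in the sources used here are the background of the wild-type mice, the animals' sex, the deleted part of Msn and whether the deletion was limited to certain cells. With 1 pooled library per genotype there is no replicate error, so no test was made, and genotype and library cannot be told apart. Every interval given as a range below is an exact 95% interval that covers counting error alone.

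Almost every nucleated cell displays MHC class I on its surface, a heavy chain bound to beta-2-microglobulin and a short peptide. The peptides are cut from cytosolic proteins by the proteasome, carried into the endoplasmic reticulum by the TAP transporter and fitted onto the heavy chain with the help of tapasin. Interferons raise the pathway, and interferon gamma also replaces the catalytic subunits of the proteasome with the immunoproteasome subunits. Resting microglia are known for low class I levels, and blood monocytes and NK cells for high ones.

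Most of the genes lie together in the MHC region of chromosome 17. In GRCm39, H2-K1 (minus strand) spans chr17:34214987-34219321, and H2-D1 (plus strand), the other classical heavy chain, spans chr17:35481691-35486475. Between them stand Psmb9 at chr17:34400960-34406738, Tap1 at chr17:34405996-34416199, Psmb8 at chr17:34416690-34420428 and Tap2 at chr17:34422501-34435829. Tapbp lies at chr17:34134873-34148267. B2m is on chromosome 2 (chr2:121977957-121983594) and Psmb10 on chromosome 8 (chr8:106662362-106665077). Psmb9 and Tap1 point away from each other, and their RefSeq start sites are 225 bases apart.

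Both heavy chain genes carry the same pair of regulatory motifs upstream, in letters that no other of the 8 genes with a RefSeq promoter entry carries. The letters of both motifs were read from the H2-K1 promoter, so H2-K1 matches by construction. Only exact matches were counted, apart from positions marked N, so variant forms in other genes would be missed. The stretches are shown because the 2 heavy chain genes moved by different amounts between the libraries. Capitals mark enhancer A (GGGGATTCCCC) and the interferon-stimulated response element (AGTTTCNNTT), read 5′ to 3′ on the strand of the gene, at chr17:34219404-34219432 for H2-K1 and at chr17:35481899-35481927 for H2-D1, where an annotated untranslated exon of H2-D1 overlaps it.
H2-K1: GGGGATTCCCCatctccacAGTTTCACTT
H2-D1: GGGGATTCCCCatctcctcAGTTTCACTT
Over these 29 bases the genes differ by 1 substitution, A18T, counted from the 5′ end of the H2-K1 stretch. The 300-base promoter windows as a whole align over 227 positions, of which 206 (90.7%) are identical. A longer stretch of H2-K1, chr17:34219393-34219571, is free of annotated exons and shows the motifs in place.
H2-K1 upstream: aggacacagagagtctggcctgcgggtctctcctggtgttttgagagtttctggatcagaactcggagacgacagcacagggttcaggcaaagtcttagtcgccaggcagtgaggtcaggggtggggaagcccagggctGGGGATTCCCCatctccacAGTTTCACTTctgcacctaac

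Searched on both strands, enhancer A was found in 10 of 32851 mouse promoter windows (0.0304%) and the response element in 564 (1.72%). Of the 9 genes whose windows hold enhancer A, 3 also hold the response element: H2-K1, H2-D1 and H2-Q6, a neighbouring class I gene. TGACGC was found in the windows of H2-K1 and H2-D1 and in 7.40% of all windows. The gamma-interferon activation site TTCNNNGAA was found in Psmb8 alone among the 8 genes and in 8.30% of all windows. CCAAT was found in 6 of the 8 genes and in 37.4% of all windows. These matches describe letters in a window and show neither binding nor a cause of the values below.

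The wild-type library held 5842 barcodes with 68576464 UMIs, of which 5577 passed the filter on cells, and the knockout library 9038 barcodes with 67575835 UMIs, of which 7573 passed. Median depth of the kept cells was 7178 and 5455 UMIs, so the libraries differed in UMIs per cell. The libraries shared 13 barcodes, of which 12 were kept in both. Msn, read at its 3′ end, stood at 322 CPM (UMIs per mega-count of all UMIs of the group) in wild-type microglia and at 20.2 CPM in knockout microglia. Since the deleted part is not given, a 3′ tag may lie outside it.

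Cells were assigned by marker genes. Microglia, with UMIs of P2ry12 and Tmem119, made up 5069 of the kept wild-type cells (90.9%) and 4811 of the kept knockout cells (63.5%). Monocytes, gated on Ace (patrolling type) or Ly6c2 (classical type), numbered 57 and 589. Macrophages of the brain's borders, gated on Mrc1 and Pf4, numbered 31 and 117. NK cells, gated on Ncr1 and Nkg7, numbered 71 in the knockout library, and 0 of 5577 cells in the wild-type library, which allows a share of up to 0.0538% when a count of 0 is read as at most 3 cells. Markers not used for gating were also read. The summed level of 5 other microglial genes (Sall1, Siglech, Gpr34, Olfml3, Fcrls) was 6047 and 6172 CPM in microglia, and in monocytes 4.57% and 4.90% of that. In border macrophages it was 24.8% and 33.9% of the microglial level, and its part in the values of that class was not tested. Markers of the own class summed to 4102 and 3225 CPM in Ace-gated cells and to 10516 and 8720 CPM in Ly6c2-gated cells. In border macrophages they summed to 4474 and 4096 CPM, and in NK cells to 22594 CPM. Border macrophages also held classical monocyte markers at 1340 and 793 CPM, and NK cells held T cell markers at 616 CPM. The knockout Ly6c2 gate also held neutrophil markers at 15261 CPM, against 3.61 CPM in the wild-type library, and when cells with 5 or more such UMIs were left out, 135 of its 145 cells remained, with 26.7 CPM.

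In both libraries microglia had the lowest levels of H2-K1, H2-D1, B2m, Tap1, Psmb8 and Psmb9 among the gated classes, and border macrophages the lowest of Psmb10. The plot of levels by gate shows these values. Each transcript yields 1 tag at its 3′ end, so CPM was not divided by gene length, and levels are compared between groups of cells and not between genes.

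**Figure D1:**
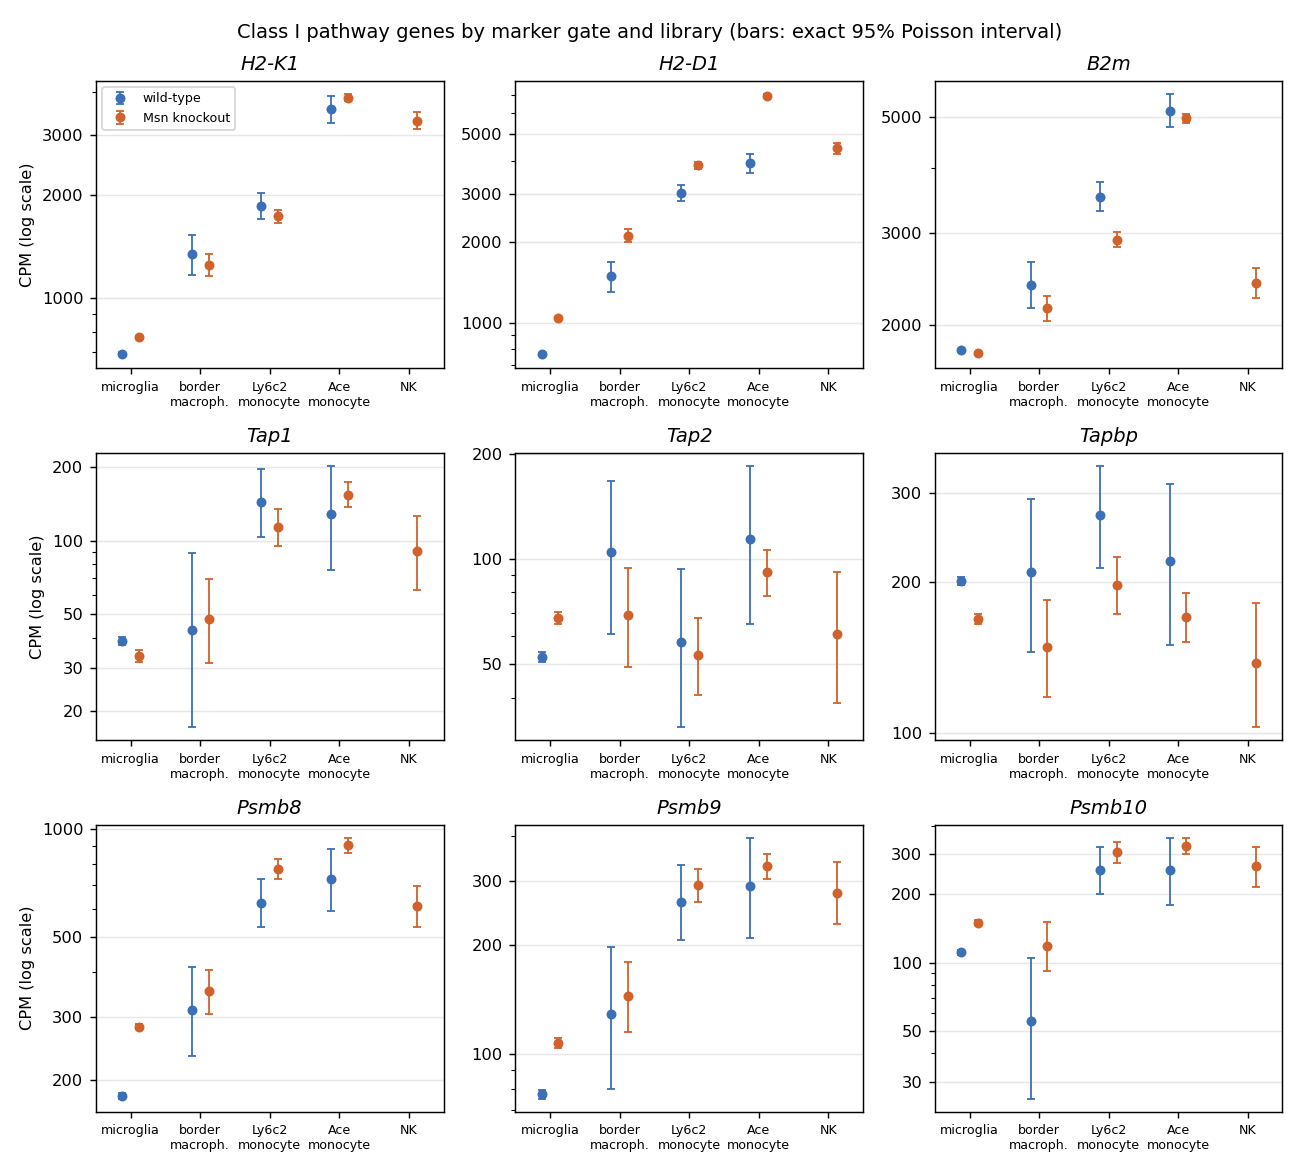
Level of each gene (CPM, log axis) in cells of 5 marker gates, for the wild-type library (blue) and the Msn knockout library (orange); bars are exact 95% Poisson intervals and cover counting error alone. H2-D1 runs from 768 CPM in wild-type microglia to 6930 CPM in knockout Ace-gated monocytes, while Tapbp stays between 138 and 270.4 CPM in every group.

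H2-K1, which codes for one classical heavy chain, stood at 690.1 CPM in wild-type and 770.4 CPM in knockout microglia. In border macrophages it was 1346 and 1256 CPM, in Ly6c2-gated monocytes 1867 and 1735 CPM, and in Ace-gated monocytes 3563 and 3858 CPM. NK cells of the knockout library had 3304 CPM. The order microglia, border macrophages, Ly6c2-gated monocytes, Ace-gated monocytes was the same in both libraries, and no neighbouring intervals in that order overlapped.

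H2-D1, the other classical heavy chain, was at 768 CPM (761 to 774) in wild-type and 1043 CPM (1033 to 1053) in knockout microglia. It reached 1487 and 2107 CPM in border macrophages, 3032 and 3842 CPM in Ly6c2-gated monocytes and 3904 and 6930 CPM in Ace-gated monocytes. NK cells had 4440 CPM (4230 to 4658). In each of the 4 gates that could be compared, the knockout interval lay above the wild-type interval.

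B2m, the light chain shared by all class I molecules, was at 1795 and 1768 CPM in microglia. It was at 2391 and 2155 CPM in border macrophages, 3526 and 2919 CPM in Ly6c2-gated monocytes and 5146 and 4975 CPM in Ace-gated monocytes. NK cells had 2410 CPM, close to border macrophages. Their H2-K1 level (3304 CPM) was near that of all gated knockout monocytes (3156 CPM). Their H2-D1 level (4440 CPM) was lower than in those monocytes (5816 CPM).

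Tap1 and Tap2 form the peptide transporter. Tap1 was at 38.8 and 33.7 CPM in microglia, 43.0 and 47.7 CPM in border macrophages, 144 and 113 CPM in Ly6c2-gated monocytes and 128 and 154 CPM in Ace-gated monocytes. Its partner Tap2 differed less between microglia (52.4 and 67.6 CPM) and monocytes. It was at 57.7 and 53.0 CPM in Ly6c2-gated and at 113.6 (16 UMIs) and 91.3 CPM in Ace-gated monocytes. In border macrophages Tap2 was at 104.5 (17 UMIs) and 68.9 CPM. NK cells had 90.2 CPM of Tap1 and 61.0 CPM of Tap2. Tapbp, which codes for tapasin, was at 200.2 and 169 CPM in microglia and at 268 and 187 CPM in all gated monocytes.

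Psmb8, Psmb9 and Psmb10 code for the immunoproteasome's catalytic subunits. Psmb8 was at 181 and 282 CPM in microglia, 313 and 353 CPM in border macrophages, 624 and 777 CPM in Ly6c2-gated monocytes and 724 and 902 CPM in Ace-gated monocytes. Psmb9 went from 77.4 and 107 CPM in microglia to 291 and 329 CPM in Ace-gated monocytes, and Psmb10 from 111 and 149 CPM to 255.5 and 324 CPM. NK cells had 610.4 CPM of Psmb8, 279 CPM of Psmb9 and 265 CPM of Psmb10. The summed level of the 9 genes was 3913 and 4389 CPM in microglia, 6078 and 6399 CPM in border macrophages, and 11759 and 15178 CPM in all gated monocytes. In the 71 NK cells it was 11597 CPM.

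Within the knockout library, 7 of the 9 genes were at least 1.5-fold higher in monocytes than in microglia, by log2 ratios taken relative to the median gene, and none was lower. The background was 30.6% of 8455 genes higher by that rule and 29.7% lower. H2-D1 stood highest at 2.86, followed by Tap1 at 2.46, H2-K1 at 2.41, Psmb8 at 2.02, Psmb9 at 2.01, B2m at 1.64 and Psmb10 at 1.49. Tap2 (0.56) and Tapbp (0.53) did not pass. The median of the 9 genes was 2.01, where the median of all genes is 0 by construction. In the wild-type library, with 57 monocytes, 9 of 9 passed (background 32.0%), with a median of 2.20.

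NK cells exceeded microglia in 7 of the 9 genes (background 33.0%), with a median of 1.31, and H2-K1 (2.29) and H2-D1 (2.28) led. Tap2 was at 0.05, and on the CPM scale at -0.15. Set against monocytes of the same library, none of the 9 was higher in NK cells (background 27.0%) and 4 were lower (background 29.2%): B2m at -0.98, Tap1 at -0.83, Psmb8 at -0.69 and Tapbp at -0.60. On the CPM scale 2 were lower, B2m and Tap1 (background 25.5%), with Psmb8 at -0.53 and Tapbp at -0.44. H2-K1 lay at -0.09 (-0.18 to -0.01), and the median of the 9 genes was -0.55. H2-D1 was at 4440 CPM in NK cells and at 5816 CPM in monocytes.

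Border macrophages exceeded microglia in 3 of 9 genes in the knockout library (background 20.2%): H2-D1 at 1.13, H2-K1 at 0.82 and Tap1 at 0.62, the last from 27 UMIs. None of the 3 passed when cells were gated without a limit on microglial markers. In the 31 wild-type border macrophages 5 were higher (background 27.7%) and Psmb10, from 9 UMIs, was lower at -0.86, with an interval of -1.99 to 0.07 (background for lower genes 29.3%).

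The 2 kinds of monocyte were compared in the knockout library, where they differed more in the surface molecule than in the immunoproteasome. There, Ace-gated over Ly6c2-gated cells gave 1.06 for H2-K1, 0.76 for H2-D1, 0.69 for Tap2 and 0.68 for B2m, which are the 4 genes past 1.5-fold (background 18.6%). Psmb8 (0.12), Psmb9 (0.08) and Psmb10 (-0.00) lay close to the median gene, and Tapbp was at -0.31. The gates compared also differed in neutrophil markers (18.3 CPM in Ace-gated and 15261 CPM in Ly6c2-gated cells) and choroid plexus markers (1192 and 17.4 CPM), whose part in these ratios was not tested. In the wild-type library, with 24 and 28 cells, H2-K1 was at 3563 and 1867 CPM, but H2-D1 at 3904 and 3032 CPM, a smaller difference than in the knockout library.

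Knockout and wild-type microglia differed in 5 of the 9 genes. Relative to the median gene, Psmb8 was 1.92-fold higher in the knockout library (log2 0.94), Psmb9 1.70-fold (0.77), H2-D1 1.67-fold (0.74), Psmb10 1.66-fold (0.73) and Tap2 1.59-fold (0.67). The other heavy chain, H2-K1, was at 0.46 and B2m at 0.28. Tap1 was at 0.09 (-0.00 to 0.19) and Tapbp at 0.05. The background was 15.3% of 8716 genes higher and 12.3% lower, and the median of the 9 genes was 0.67.

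Signs of cell state and RNA quality differed between these microglia as well. The median mitochondrially encoded share was 1.40% in wild-type and 0.470% in knockout microglia, and the heat shock genes Hspa1a, Hspa1b and Dnajb1 summed to 360.2 and 1012 CPM. Their part in the result was not tested.

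How the libraries are scaled matters for this comparison. The median gene was lower in knockout microglia by a log2 CPM ratio of -0.30, and on the CPM scale Psmb8 alone passed, at 1.56-fold (background 4.72%). On that scale the other 4 stood between 0.37 and 0.47 (log2), and B2m (-0.02), Tap1 (-0.20) and Tapbp (-0.25) turned below 0. Over all 8716 genes the CPM scale gave 411 higher and 2672 lower, against 1337 and 1075 relative to the median gene.

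Shares of cells with a UMI were compared once every cell was thinned to 2000 UMIs, which left out 132 wild-type and 345 knockout microglia. Psmb8 was seen in 30.1% of wild-type and 42.2% of knockout microglia (72.9% and 76.2% unthinned), and H2-D1 in 73.8% and 79.6% (95.2% and 93.6% unthinned). Psmb10 was seen in 20.2% and 26.2%, Psmb9 in 14.7% and 18.5% and Tap2 in 10.2% and 13.2%. The other 4 genes were not seen in more knockout cells. Tap1 was seen in 7.09% and 6.78%, H2-K1 in 71.3% and 70.8%, B2m in 96.6% and 94.8% and Tapbp in 32.8% and 28.6%, and the intervals of the last 2 genes did not overlap. No cell type of this sort is known to lack class I genes, so no share of background cells is set beside these. In each of 4 ranges of depth, from 2000 UMIs to 15000 UMIs and up, 5 of the 9 genes passed, with medians of 0.61 to 0.70. The background over these ranges was 19.9%, 13.2%, 14.9% and 16.4%. On the CPM scale 2, 0, 1 and 1 genes passed in these ranges, from the shallowest up, with backgrounds of 8.45%, 4.01%, 4.79% and 5.34%.

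Marker RNA of other cell types in the microglia gate differed between the libraries, in both directions. Classical monocyte markers summed to 14.0 CPM in wild-type and 52.5 CPM in knockout microglia (all 5 of 5 detected in both), which is 0.133% and 0.602% of their level in Ly6c2-gated cells. Patrolling monocyte markers stood at 35.2 and 82.1 CPM, neutrophil markers at 16.8 and 178 CPM, NK markers at 0.459 and 10.7 CPM (Gzmb and Klre1 at 0 in the wild-type library) and hemoglobin genes at 83.5 and 213 CPM. Lower in the knockout gate were border macrophage markers, at 249.95 and 208 CPM (5.59% and 5.07% of their level in border macrophages), oligodendrocyte markers, at 27.6 and 19.8 CPM, and endothelial markers, at 28.3 and 21.3 CPM. Every microglial cell with a UMI of the classical monocyte, neutrophil or NK marker lists was then left out, which kept 4325 and 3368 cells. Of the 9 genes, 5 were again higher, with a median of 0.67. Cells were not left out by the patrolling monocyte list, and the share of all genes called was not taken here.

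In monocytes the genotype comparison gave fewer genes past 1.5-fold. H2-D1 was 2.02-fold higher in the knockout library (log2 1.01, background 19.3% of 7814 genes), and 8 genes lay within 1.5-fold, among them Psmb8 at 1.49-fold and H2-K1 at 1.48-fold. Tapbp was at -0.29 (-0.57 to -0.00), and Tap2 at 0.19, which became -0.03 on the CPM scale. The median of the 9 genes was 0.51. Several values stood just under the limit. The count was 5 with TMM scaling or median-of-ratios scaling and 3 without cells that carried neutrophil or choroid plexus markers. The share of all genes past the limit was not taken under those settings.

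The gate mixes both kinds of monocyte in different proportions, with 24 Ace-gated and 28 Ly6c2-gated cells in the wild-type library and 357 and 145 in the knockout library. H2-K1, which was higher in Ace-gated cells in both libraries, was at 0.57 in all gated monocytes, at 0.43 within Ace-gated and at 0.10 within Ly6c2-gated cells; on the CPM scale the last 2 were 1.08-fold and 0.929-fold.

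Split by kind, Ace-gated monocytes (24 wild-type, 357 knockout cells) had H2-D1 at 1.14, Psmb10 at 0.66 and Psmb8 at 0.63, which are the 3 genes past 1.5-fold (background 26.7%). On the CPM scale H2-D1 alone passed (background 17.7%), with Psmb10 at 1.27-fold and Psmb8 at 1.25-fold. In Ly6c2-gated monocytes (28 and 145 cells) 0 of 9 passed (background 23.1%), with H2-D1 at 0.54, Psmb8 at 0.52 and a median of 0.10. When the knockout cells with 5 or more neutrophil or choroid plexus UMIs were left out, the count was again 0, with a median of 0.11. Whether the 2 kinds differ in their genotype difference was not tested.

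Among border macrophages, H2-D1 was higher in the knockout library at 0.72 (0.52 to 0.92), and Psmb10 at 1.31 (0.30 to 2.50), which rests on 9 wild-type UMIs; the background was 27.4%. On the CPM scale H2-D1 was at 0.50, short of 1.5-fold, and Psmb10 alone passed (background 20.5%). H2-K1 (0.11) and B2m (0.06) were near the median gene and below 0 on the CPM scale, at -0.10 and -0.15. The median of the 9 genes was 0.36.

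**Figure D2:**
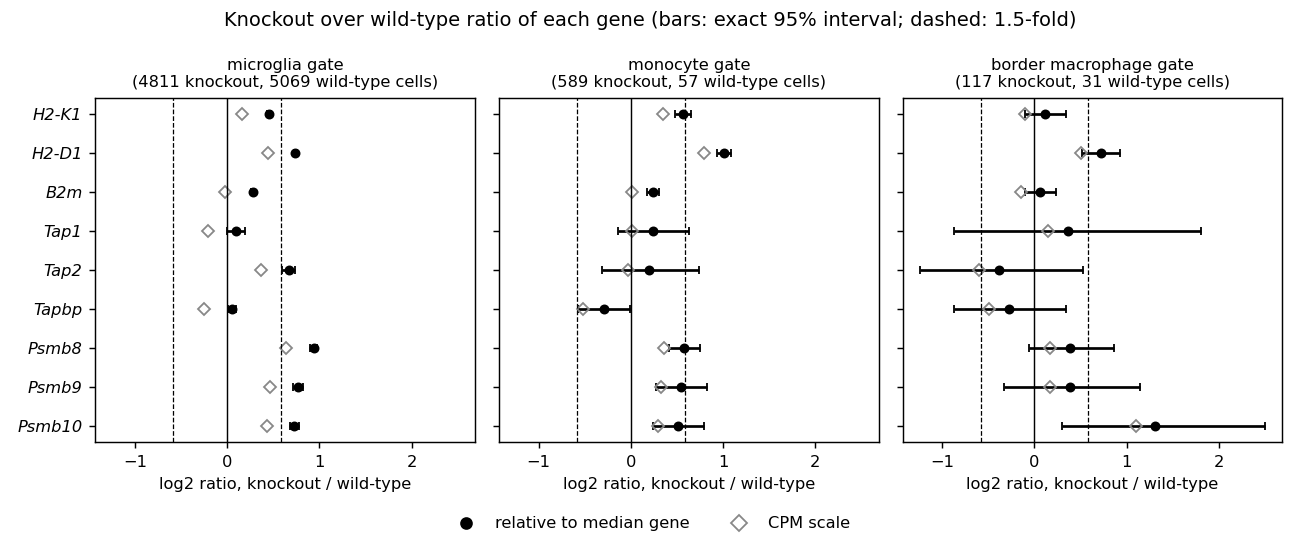
Log2 ratio of knockout over wild-type for each gene in microglia, monocytes and border macrophages; black points are relative to the median gene with exact 95% intervals (counting error alone), open diamonds are on the CPM scale, and dashed lines mark 1.5-fold. Relative to the median gene H2-D1 lies right of the line in each panel (0.74, 1.01 and 0.72) and Tapbp lies at 0.05, -0.29 and -0.28; on the CPM scale H2-D1 lies left of the line in microglia (0.44) and border macrophages (0.50).

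The 2 heavy chains were then set against each other within the same cells, which needs no scaling between libraries. H2-D1 made up 52.7% (52.3 to 53.0) of the summed H2-D1 and H2-K1 UMIs in wild-type microglia and 57.5% (57.2 to 57.9) in knockout microglia. The share was 52.3% and 64.2% in Ace-gated monocytes, 61.9% and 68.9% in Ly6c2-gated monocytes, and 52.5% and 62.7% in border macrophages. In all 4 gates the knockout share was the higher one and the intervals did not overlap. NK cells of the knockout library were at 57.3%. The class I heavy chain genes resemble one another closely, and reads that fit more than 1 of them may not be counted, so how their UMIs are divided depends on the counting and on how close the mice are to the reference genome; the effect of this was not tested.

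Each immunoproteasome subunit takes the place of a constitutive one, Psmb8 that of Psmb5, Psmb9 that of Psmb6 and Psmb10 that of Psmb7. In microglia, Psmb10 made up 60.6% of its pair's UMIs (wild-type) and 68.9% (knockout), and Psmb9 36.5% and 40.9%. Psmb8 went the other way, from 72.2% to 68.7%, with Psmb5 at 69.4 CPM in wild-type and 128 CPM in knockout microglia (1.18 relative to the median gene). Over the 3 pairs together the immunoproteasome share was 57.2% (56.7 to 57.7) and 60.6% (60.1 to 61.1).

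Monocytes held larger shares. Their 3 pairs together gave 76.2% (73.0 to 79.3) in the wild-type and 75.5% (74.5 to 76.4) in the knockout library, so the libraries' intervals overlapped there. In border macrophages the shares were 68.1% and 64.7%, and in NK cells 69.0%. By pair, the Psmb8 share of all gated monocytes was lower in the knockout library, at 84.8% (80.7 to 88.2) and 78.5% (77.2 to 79.7). The Psmb9 share went from 61.3% to 65.2% and the Psmb10 share from 74.8% to 80.0%, with overlapping intervals. Psmb9, at 40.9% of its pair in knockout microglia, reached 66.9% in knockout Ace-gated monocytes.

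**Figure D3:**
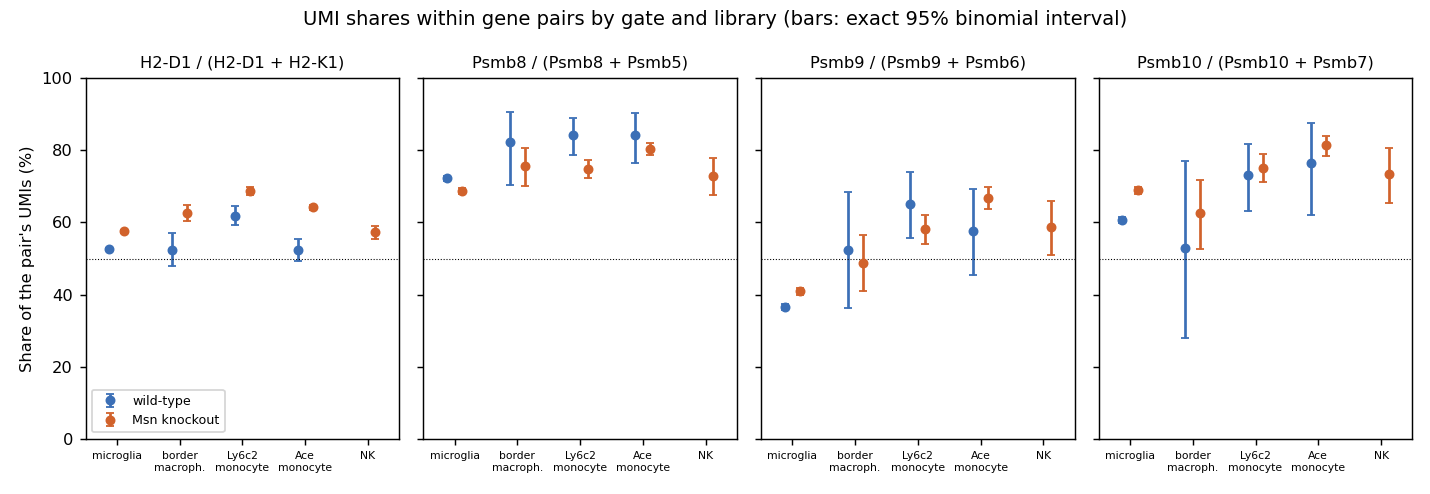
Share of a gene pair's UMIs (percent) that came from the first gene named, by gate, for the wild-type (blue) and Msn knockout (orange) library; bars are exact 95% binomial intervals and the dotted line marks equal counts. The H2-D1 share is higher in the knockout library in all 4 gates that can be compared. The Psmb8 share is lower in all 4, at 68.7% against 72.2% in microglia, with overlapping intervals in Ace-gated monocytes and border macrophages.

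Microglia themselves vary, and cells with interferon-response RNA were looked at first. The microglia of at least 2000 UMIs with the highest summed level of Ifit1, Ifit2, Ifit3, Rsad2, Oasl2 and Mx1 numbered 94 (wild-type) and 74 (knockout). Such a group is a range of a score and no cell type; its median depth was 14375 and 10262.5 UMIs, against 7658 and 5906.5 UMIs in the other microglia. Tap1, which lay close to the median gene between genotypes (0.09), had the largest ratio of the 9 here: it was higher than in other microglia by 0.82 (0.54 to 1.08) in the first library and by 1.21 (0.84 to 1.55) in the other. Psmb9 was at 0.25 and 0.60, and passed 1.5-fold in the knockout library. The background was 2.74% and 6.87% of genes higher, and the median of the 9 genes was 0.22 and 0.33, with all 9 above the median gene in both libraries.

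The count was larger when the groups were formed among cells of 4000 to 8000 UMIs alone. At that depth 3 UMIs of the list are a higher CPM than in deeper cells, so the cut was also stricter. Its part in the larger count was not tested. Among wild-type microglia of this depth, 25 cells made up the interferon-high group, and 5 of the 9 genes passed, with a median of 0.59. In the knockout library, with 24 cells, 3 passed with a median of 0.48. The share of all genes past the limit was not taken in these smaller groups. Their counts therefore cannot be set beside the background of the larger groups.

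No gene of the 9 passed 1.5-fold in the other 4 groups of microglia. Cells high in MHC class II genes (178 and 215 cells) had all 9 genes above the median gene in both libraries, with medians of 0.26 and 0.25 and H2-D1 at 0.32 and 0.47 (background 1.57% and 3.00%). Cells high in Apoe, Cst7, Lpl, Itgax, Spp1 and Clec7a, genes of disease-associated microglia, had medians of 0.20 and 0.19 (background 1.66% and 2.49%). For Ccl3 and Ccl4 the medians were 0.14 and 0.10 (background 2.23% and 2.29%), and for the heat shock genes Hspa1a, Hspa1b and Dnajb1 0.04 and 0.02 (background 1.23% and 2.37%).

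**Figure D4:**
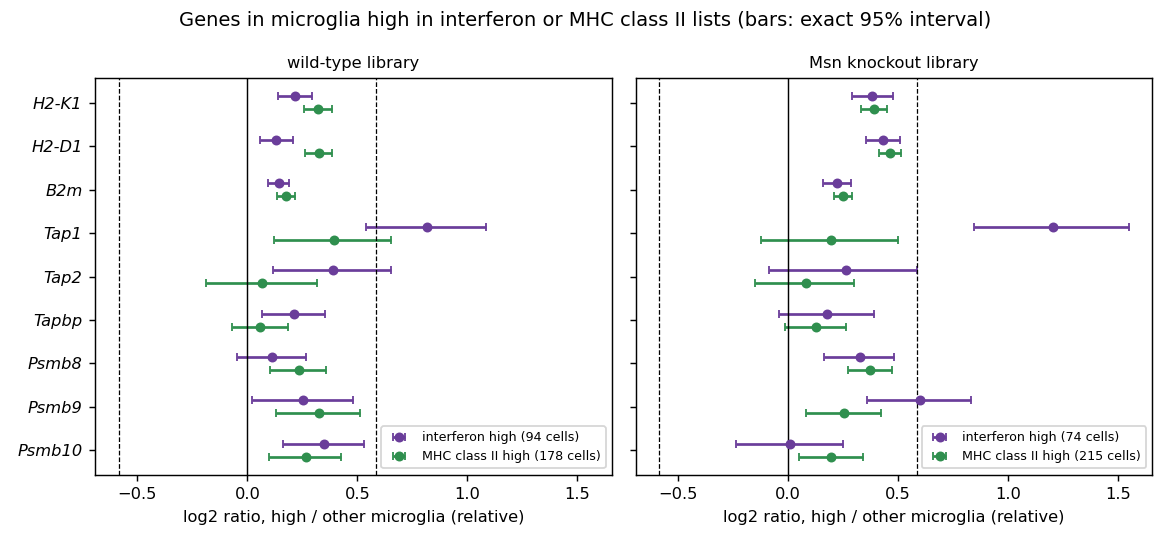
Log2 ratio, relative to the median gene, of microglia high in interferon-response genes (purple) or MHC class II genes (green) over the other microglia of the same library; bars are exact 95% intervals for counting error and dashed lines mark 1.5-fold. Tap1 lies at 0.82 and 1.21 in interferon-high cells, and every class II value lies under the 1.5-fold line.

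Other genes of the pathway were read in knockout over wild-type microglia by the same rule, beside the 15.3% of all genes that were higher and the 12.3% that were lower. Of the 6 genes of proteasome activators and assembly, 3 were higher and none lower: Psme2 (1.16) and Psme1 (0.97), which form the cap that interferon gamma induces, and Pomp (0.71), which assembles new proteasomes. Among 3 constitutive subunits Psmb5 was higher, and Psmb6 (0.50) and Psmb7 (0.20) lay within. Of 10 other class I and class I-like genes at 10 CPM or more, 4 were higher and none lower: H2-T22 (0.98), Fcgrt (0.83), which codes for the neonatal Fc receptor, H2-T23 (0.63), the mouse Qa-1 molecule, and H2-M3 (0.62). H2-T10 was under that level. H2-T22 and H2-T10 are close copies of each other, so their counts are uncertain.

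Of 7 genes for peptide loading and trimming, none was higher and 1 was lower, Erap1 (-0.59), the peptidase that trims peptides in the endoplasmic reticulum. The other helpers lay within 1.5-fold. Tapbpl (0.54), Pdia3 (0.42) and Hspa5 (0.38) were above the median gene and the rest below it, and the median of the 7 was -0.17. Of 18 regulators and interferon signalling genes at 10 CPM or more, Socs1 (0.98), an inhibitor of interferon signalling, was higher, and Rfx5 (-0.81), a factor that binds class I and class II promoters, and Ifnar1 (-0.77), a chain of the type I interferon receptor, were lower. The median of those 18 was 0.14. Irf1 (0.44), a factor that interferon gamma induces, lay within 1.5-fold, and Nlrc5, the class I transactivator, was under 10 CPM, at 4.83 and 3.58 CPM.

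On the CPM scale 4.72% of all genes were higher and 30.7% lower. Activators and assembly factors then gave 2 higher (Psme1 and Psme2) and none lower, and the other class I and class I-like genes 1 higher and 1 lower, Mr1, which presents vitamin metabolites. Loading and trimming gave 2 lower, Erap1 among them, and the regulators 1 higher and 4 lower, with Rfx5 and Ifnar1 among the latter.

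Finally, genes were ranked by how closely their levels followed the mean profile of the 9 over the 6 groups of at least 50 cells (wild-type microglia and monocytes, and the 4 knockout classes). The 9 themselves, mitochondrially encoded genes and ribosomal protein genes were left out of this ranking. Out of the 4954 other genes that reached 50 CPM in 1 group or more, the 10 most alike had Pearson r of 0.991 to 0.997. They included Arpc2, Lamtor5, Mrpl33, Cytip, Ndufb1, Arpc1b, 2310001H17Rik, Adgre5 and Sh2d1b1. Arpc2 and Arpc1b, subunits of the Arp2/3 complex that branches actin, were at 568 and 416 CPM in wild-type microglia and at 1606 and 1965 CPM in knockout monocytes. The groups share libraries and have few cells apart from microglia, so r describes these 6 points alone. Among the 9 themselves, Psmb8 (0.989) and Psmb9 (0.986) followed the mean profile most closely, and Tapbp least (0.225). Each of the 9 is part of that mean, so its r cannot be set beside those of the other genes.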

How the data were processed

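Single-cell RNA was measured in 1 wild-type and 1 Msn knockout library. The deposited values are raw UMI counts, written by Cell Ranger 7.0.0 per the file headers (the labels' protocols name version 6.0), on GRCm39 per the submitters' processing notes. A filter on cells under 500 genes is named in the labels' protocols, but the deposited counts still hold such barcodes. Cells with at least 500 genes and at most 10% mitochondrially encoded UMIs were kept. No doublet caller was run.

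Microglia needed 1 UMI each of P2ry12 and Tmem119 and a summed level of both at or above the median of such cells divided by 3. Other classes stood below that level, with 2 UMIs of Ace or of Ly6c2, 2 each of Mrc1 and Pf4, or 1 each of Ncr1 and Nkg7. Cells in more than 1 class were left out. UMIs were summed per class and library and given as CPM. Ratios are relative to the median log2 ratio of genes that reached 10 CPM in either group, and 1.5-fold was the limit. Shares of cells used 2000 UMIs per cell. State groups were the top 5% of microglia by a list's CPM, with at least 3 UMIs of it. Cells of the top 5% with fewer were counted among the other microglia.

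Genes named are the 9 themselves, genes of the lists past 1.5-fold in microglia, and those among the 10 most alike in profile; some genes of the lists are not reported here. Other list genes named were chosen after their values were seen. The genes and lists were chosen with earlier results of these data known, and the motifs after the promoter sequences had been seen. Promoter sequences are from RefSeq (GRCm38.p6 table), placed on GRCm39 by exact match; Tap2 has no entry. The gene models are from GENCODE. The script was tested on simulated data. Alternatives covered cell filters, gates, scaling (with TMM from edgeR 4.0.16), the CPM floor, depth and thinning. Python 3.11.15 with scipy 1.17.1 was used.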

Additional observations from a re-analysis of the deposited data

Results flagged for a closer look

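Tapbp went one way in microglia and the other in monocytes. Its knockout over wild-type log2 ratio relative to the median gene was 0.051 in microglia and -0.29 in monocytes. The difference between the gates was not tested, and on the CPM scale both values were below 0.

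Class I genes were also counted in cells that entered no comparison. In the knockout library the summed level of the 9 genes was 5451 CPM in the 623 cells with markers of another class and microglial markers above the limit, against 4383 CPM in 129 such wild-type cells. It was 5503 CPM in the 90 knockout cells of more than 1 class, against 4533 CPM in 5 wild-type cells. The 1272 knockout cells of no class reached 8789.9 CPM, against 4859 CPM in 286 wild-type cells, and their median depth was 1087.5 and 1489 UMIs. Barcodes removed by the filter on cells held 2944 CPM in the knockout and 2491 CPM in the wild-type library.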

How the results depend on the processing

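No paired analysis was possible because each genotype is 1 library, and for the same reason no library could be left out. In knockout over wild-type microglia the count of 5 higher genes became 1 on the CPM scale and 4 with a floor of 50 CPM, and was again 5 in the other 13 alternatives; the median of 0.67 became 0.37 on the CPM scale, 0.79 with TMM or median-of-ratios scaling and 0.55 with a floor of 50 CPM. In monocytes the count of 1 became 5 with TMM, median-of-ratios scaling or no limit on microglial markers, 4 in cells of 4000 to 8000 UMIs, 2 with gates at 1 UMI or thinned cells, and 3 without neutrophil or choroid plexus cells. In border macrophages the count of 2 became 1 on the CPM scale and 4 without the marker limit or with thinned cells, and the count of 0 lower became 1 on the CPM scale and 2 with thinned cells.
For monocytes over knockout microglia the median of 2.01 became 1.63 on the CPM scale, 1.87 with TMM, 1.74 at a floor of 50 CPM and 1.25 without the marker limit. For NK cells 1.31 became 1.03 with TMM, 1.10 at that floor and 0.69 without the marker limit. For border macrophages 0.44 became 0.069, and the count of 3 became 0, without the marker limit. In interferon-high cells the wild-type median of 0.22 became 0.59 in cells of 4000 to 8000 UMIs, 0.32 as a mean of cells and 0.36 without cells of 15000 UMIs or more, and its count of 1 became 5, 2 and 3, and 2 without marker-positive microglia. The knockout median of 0.33 became 0.48 in cells of 4000 to 8000 UMIs, and its count of 2 became 1 on the CPM scale, with TMM or with median-of-ratios scaling.
The H2-D1 share in wild-type microglia (52.7%) became 53.4% in cells of 4000 to 8000 UMIs, 53.1% as a mean of cells and 53.0% without cells of 15000 UMIs or more, and in knockout microglia (57.5%) 58.2% and 58.1% for the first and last of these. In knockout monocytes (64.8%) it became 64.0% in cells of 4000 to 8000 UMIs or thinned, 64.2% as a mean of cells and 63.0% without the marker limit, in wild-type monocytes 54.5% in cells of 4000 to 8000 UMIs, and in knockout border macrophages 57.1% without the marker limit. In every alternative that gave both values the knockout share was the higher one.
The alternatives that leave out cells with markers of other classes were chosen after seeing the data. Thinned interferon-high cells, and wild-type border macrophages of 4000 to 8000 UMIs, numbered under 20 and gave no value. For most of these alternatives the share of all genes called was not taken, so those counts have no background beside them. The cause of each shift was not tested.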

Other observations

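Among the cells of no class, H2-D1 was at 3157 CPM and H2-K1 at 1936 CPM in the knockout library, against 1129 and 1085 CPM in the wild-type library. In barcodes that the filter on cells removed, the order was turned, with H2-K1 at 1003 CPM and H2-D1 at 815 CPM in the knockout library. Psmb8 was at 516 CPM in the knockout cells of no class and at 230.4 CPM in the wild-type ones.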
